A study of Mus musculus with 8 samples.

Results

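Translation factors are the proteins that bring an mRNA to the ribosome, place the first tRNA on its start codon and move the ribosome along the message. Their genes were taken from the deposited count table as the rows whose symbol begins with Eif or Eef followed by a digit. Of 68 such symbols, 5 were dropped by the rule, namely Eif2s3x, Eif2s3y, Eif4ebp1, Eif4ebp2 and Eif4ebp3, which left 63 members of 24976 genes. The members were grouped by role into 13 genes of the cap-binding complex eIF4F and its partners, 10 of start-site selection and subunit joining, 7 of eIF2 and its exchange factor eIF2B, 4 eIF2 kinases, 14 eIF3 subunits, 8 elongation factors and 6 partners or modifiers of elongation factors. The last member, Eef1akmt4-ece2, is a read-through of 2 neighbouring genes.

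The libraries hold CD8 T cells recovered from B16-OVA tumours. B16-OVA is a melanoma line of mouse origin that carries the ovalbumin antigen, and its cells had been injected into Rag2-/- mice 10 days before the T cells were transferred. Such hosts lack T and B lymphocytes, so the T cells found in the tumour are the transferred ones. Per the labels, the donor cells were WT, or Cd8Cre Nr4a1 fl/fl Nr4a2 fl/fl with the OT-I T cell receptor transgene (dKO). Whether OT-I was present in the WT donors is not stated. On day 10 after transfer, cells bearing PD1 were sorted without or with Tim3, a surface receptor of terminally exhausted T cells, and the sorted cells of each implanted mouse made a library. The 4 groups, WT PD1+Tim3-, dKO PD1+Tim3-, WT PD1+Tim3+ and dKO PD1+Tim3+, had 2 libraries each. The ages of the animals are not given in the labels.

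Total counts ran from 1944999 in dKO PD1+Tim3- replicate 2 to 13418762 in WT PD1+Tim3+ replicate 2. The sort was visible in Havcr2, the gene of Tim3, at 2.28 to 3.62 CPM (counts scaled to the TMM-adjusted library size) in the Tim3- libraries and 41.8 to 58.2 CPM in the Tim3+ libraries. The targeted gene Nr4a1 stood at 789 to 979 CPM in the WT libraries and 1170 to 1490 CPM in those labelled dKO, and Nr4a2 at 958 to 1030 CPM against 929 to 984 CPM. The Nr4a2 values overlapped and Nr4a1 went against the label, so every genotype direction below refers to the libraries labelled dKO. Marker levels are given as CPM of the unadjusted library total. The 5 CD8 T cell markers summed to 4184 to 4972 CPM. The 7 B16 melanoma markers summed to 18.1 to 21.6 CPM, most of it Tyr at 14.6 to 17.3 CPM, with Mlana, Tyrp1 and Sox10 below 1 CPM. Of 8 macrophage and monocyte markers, 7 were in the table: Lyz2, Csf1r, C1qa, C1qb and C1qc stayed below 1 CPM, Cd68 read 5.66 to 11.3 CPM and Ly6c2, which CD8 T cells also express, 1026 to 1736 CPM, so that the list summed to 1034 to 1492 CPM in Tim3- and 1441 to 1749 CPM in Tim3+ libraries. The 5 dendritic cell markers summed to 25.6 to 33.5 CPM in Tim3- and 46.9 to 56.5 CPM in Tim3+ libraries, most of it Itgax, with Clec9a at 0 in all Tim3- libraries. The 4 NK cell markers summed to 58.4 to 88.7 CPM in WT and 39.3 to 47.4 CPM in dKO libraries, most of it Eomes, which CD8 T cells also express. The 5 erythroid markers summed to 3.54 to 7.03 CPM in the Tim3- libraries, 6.48 to 36.1 CPM in WT Tim3+ and 32.1 to 111 CPM in dKO Tim3+, and the part of these lists in the results was not tested. Counts in ribosomal RNA genes were 1.60 to 2.37% of the total in the Tim3- libraries and 6.52 to 8.36% in the Tim3+ libraries, and the part of this difference in the results was not tested either. The chi-square per gene between replicates was 16.1 in WT Tim3- and 10.3 in dKO Tim3+, against 3.10 in dKO Tim3- and 3.14 in WT Tim3+. It grows with sequencing depth and was not adjusted for it, so it gives no ranking of replicate agreement.

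Initiation begins when eIF4E binds the mRNA cap and eIF4G and the helicase eIF4A join it as eIF4F. The small ribosomal subunit, carrying eIF3 and eIF2 with the initiator tRNA, scans to the start codon, where eIF5 and eIF5B act before the large subunit joins. eIF2 is recycled by eIF2B and is silenced by 4 kinases that sense different stresses. In elongation, eEF1A delivers aminoacyl-tRNA, the eEF1B subunits recharge eEF1A, eEF2 moves the ribosome on and eIF5A, which carries hypusine, relieves stalls. Activated T cells raise protein synthesis strongly, and many elongation factor and ribosomal protein mRNAs carry a terminal oligopyrimidine (TOP) start that mTORC1 signalling uses to set their translation.

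Sequences are shown for some of the members that were called between the populations or that stand on the TOP list. They were included because the TOP element is defined by the first bases of the mRNA. Each window runs from 30 bases before to 30 bases from the RefSeq start onwards, 5′ to 3′ on the gene's own strand, in GRCm38.p6. Capitals mark a C followed by at least 7 further C or T on that strand, with no base counted in more than 1 run.
Eef1a1, chr9:78481695-78481754, minus strand: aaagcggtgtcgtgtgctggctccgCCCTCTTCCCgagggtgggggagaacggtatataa
Eif3f, chr7:108934385-108934444, plus strand: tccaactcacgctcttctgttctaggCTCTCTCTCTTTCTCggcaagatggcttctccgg
Eef1a2, chr2:181156986-181157045, minus strand: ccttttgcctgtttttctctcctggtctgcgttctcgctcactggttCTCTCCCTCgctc
Eef1b2, chr1:63176801-63176860, plus strand: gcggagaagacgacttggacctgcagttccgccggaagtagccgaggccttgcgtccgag
Eif4b, chr15:102073743-102073802, plus strand: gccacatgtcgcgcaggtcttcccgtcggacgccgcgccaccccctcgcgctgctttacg
Eif5b, chr1:37997980-37998039, plus strand: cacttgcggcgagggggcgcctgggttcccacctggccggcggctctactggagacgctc
Eif4a2, chr16:23107438-23107497, plus strand: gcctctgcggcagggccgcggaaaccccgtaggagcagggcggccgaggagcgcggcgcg
Of the 63 members, 50 had an entry in the RefSeq promoter table, and 12 of those 50 (24%) held such a run, against 20.6% of 27025 genes. On the TOP list 2 of 5 members with an entry held it, Eef1a1 and Eif3f. Eef1b2, Eif4b and Eef2, whose window is not shown, did not. Among the other members 10 of 45 did. The run begins 5 bases before the RefSeq start in Eef1a1, 4 bases before it in Eif3f and at base 18 from it in Eef1a2. These matches describe letters in the window only, and whether any run forms the first bases of an mRNA was not tested.

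The members were abundant. The median of the 62 members that passed the low-count filter was 86.6 CPM, against 18.9 CPM over all 13073 genes tested. Eif4e1b, an oocyte form of eIF4E, was the member that did not pass, at 0.51 to 1.04 CPM. Per kilobase of transcript, elongation factors led with a median of 426 CPM, followed by the eIF3 subunits at 105 CPM, and the eIF2 kinases and the elongation partners were lowest at 8.46 and 9.41 CPM.

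**Figure D1:**
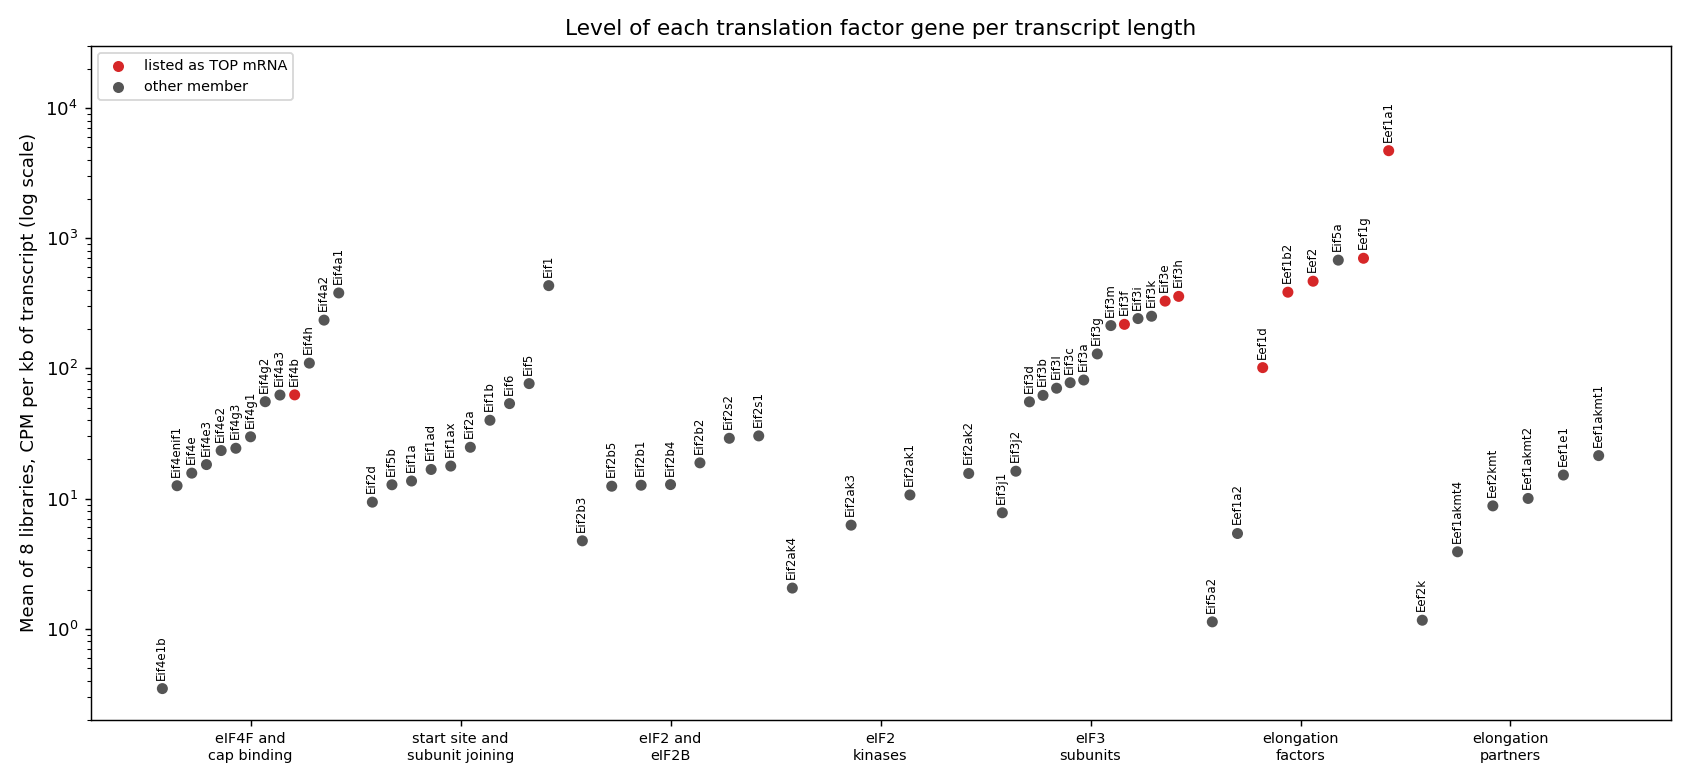
Mean level over the 8 libraries of each member with an annotated transcript length, in CPM per kilobase on a log axis, grouped by role, with the 9 members listed as TOP mRNAs in red. Eef1a1 stands above every other member at 4703 CPM per kilobase, while its paralog Eef1a2 is at 5.39.

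Eef1a1, the main eEF1A of most tissues, held 35.4 to 42.6% of all member counts. Its annotated transcript shares 59.2% of its 50-base windows with 20 other genes, so part of its count depends on how the authors counted reads that match several genes. The same holds for Eif4a1 (65.3% of windows shared) and Eef1g (64.3%). Within families the most abundant form per kilobase differed widely from the rest. Eif5a stood at 679 CPM per kilobase and Eif5a2 at 1.13, Eif1 at 432 and Eif1b at 40.0, whereas Eif4e, Eif4e3 and Eif4e2 lay between 15.7 and 23.4.

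As a share of all counts, the members held 2.06 ± 0.259% (SD, n = 2) in WT Tim3-, 2.37 ± 0.0690% in dKO Tim3-, 2.27 ± 0.0534% in WT Tim3+ and 1.98 ± 0.152% in dKO Tim3+ libraries. The individual values were 1.88 and 2.25%, 2.32 and 2.42%, 2.31 and 2.24%, and 2.09 and 1.88%, in that order of groups. Among Tim3- cells both dKO libraries lay above both WT libraries, and among Tim3+ cells both lay below. Separation of 2 libraries from 2 is common without any difference, and it was not tested. Without Eef1a1 the nearest Tim3- shares were 1.381% in WT replicate 2 and 1.390% in dKO replicate 2. The 2 lowest shares were those of WT Tim3- replicate 1 and dKO Tim3+ replicate 2. Cytosolic ribosomal protein genes, measured over 79 genes, held 12.6 to 15.0% in Tim3- and 10.6 to 12.6% in Tim3+ libraries.

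**Figure D2:**
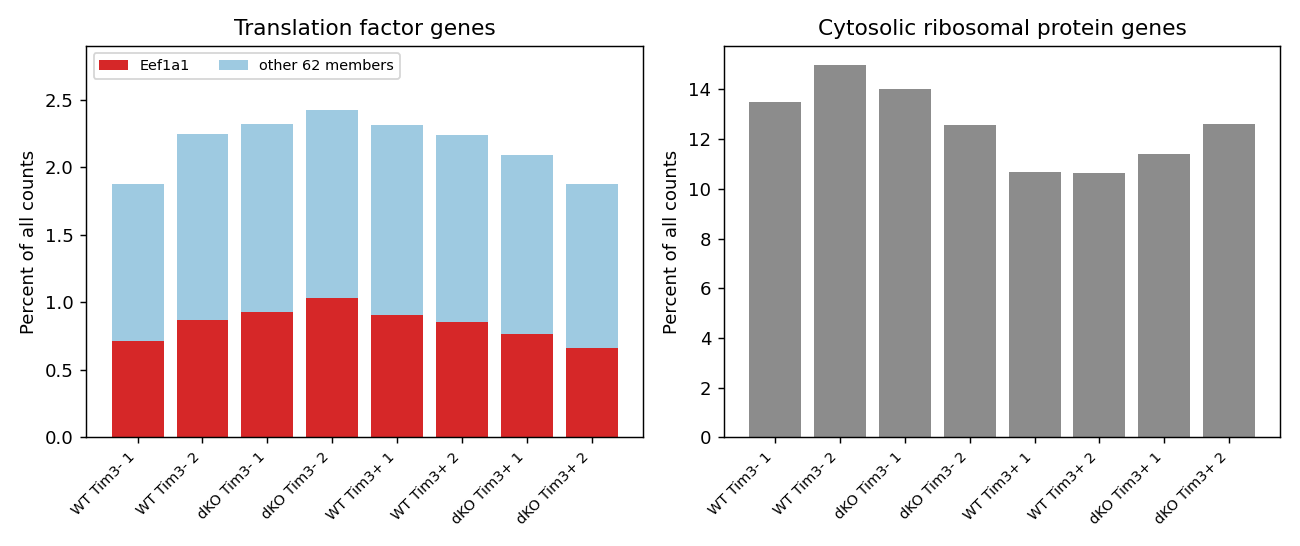
Percent of all counts in each of the 8 libraries, for Eef1a1 and the other 62 members stacked (left) and for 79 ribosomal protein genes (right). Member shares run from 1.88 to 2.42%, and the ribosomal protein shares are lowest in the 2 WT Tim3+ libraries.

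Tim3+ against Tim3- cells. The first question was which translation factors differ between the PD1+Tim3- and PD1+Tim3+ cells of a tumour. In WT cells 9 of 62 members (14.5%) passed edgeR's quasi-likelihood test at an adjusted p under 0.05, 4 higher and 5 lower in Tim3+ cells, where 17.0% of all genes tested did. In dKO cells 5 of 62 (8.06%) passed, 1 higher and 4 lower, where 9.93% of all genes did. Both shares are near the background, so the members as a group were not called more often than other genes. Their changes were small: the median size of the log2 fold change was 0.15 in either genotype, against 0.27 and 0.25 over all genes. A single member, Eef1a2 (1.61%), moved by more than 1 on the log2 scale, against 8.85% of all genes in WT and 8.57% in dKO cells. Both counts depended on single libraries. In WT cells few members stayed called without WT Tim3- replicate 1 or either WT Tim3+ library. More were called without either dKO Tim3+ library. In dKO cells few or none stayed called without either dKO Tim3- library, and fewer did without either WT Tim3+ library. The count over all genes tested moved in the same direction each time. With DESeq2 the WT calls were 2 members higher and 3 lower, where 479 genes were higher and 824 lower of 13073. In these bulk libraries fewer cells of a type and less RNA per cell cannot be told apart.

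A further contrast, the Tim3+ against Tim3- difference averaged over the genotypes, was added after the data had been seen. It called 11 members (17.7%), 4 higher and 7 lower, against 22.8% of all genes. Of these 11, 10 had also passed in WT or dKO cells, and Eif4b was the addition. The calls of 5 members, Eef1a2, Eef1b2, Eif2ak3, Eif4e3 and Eif5b, held under all 16 alternatives, and the others were lost under at least 4 of them. All 4 Tim3+ libraries lay above all 4 Tim3- libraries for 5 members (8.06%, against 12.3% of all genes), namely Eef1e1, Eif2ak3, Eif2b2, Eif4e3 and Eif6. They lay below for 10 members (16.1%, against 10.6% of all genes), namely Eef1a2, Eef1b2, Eif2b3, Eif3a, Eif3b, Eif3j2, Eif4a2, Eif4b, Eif5 and Eif5b.

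**Figure D3:**
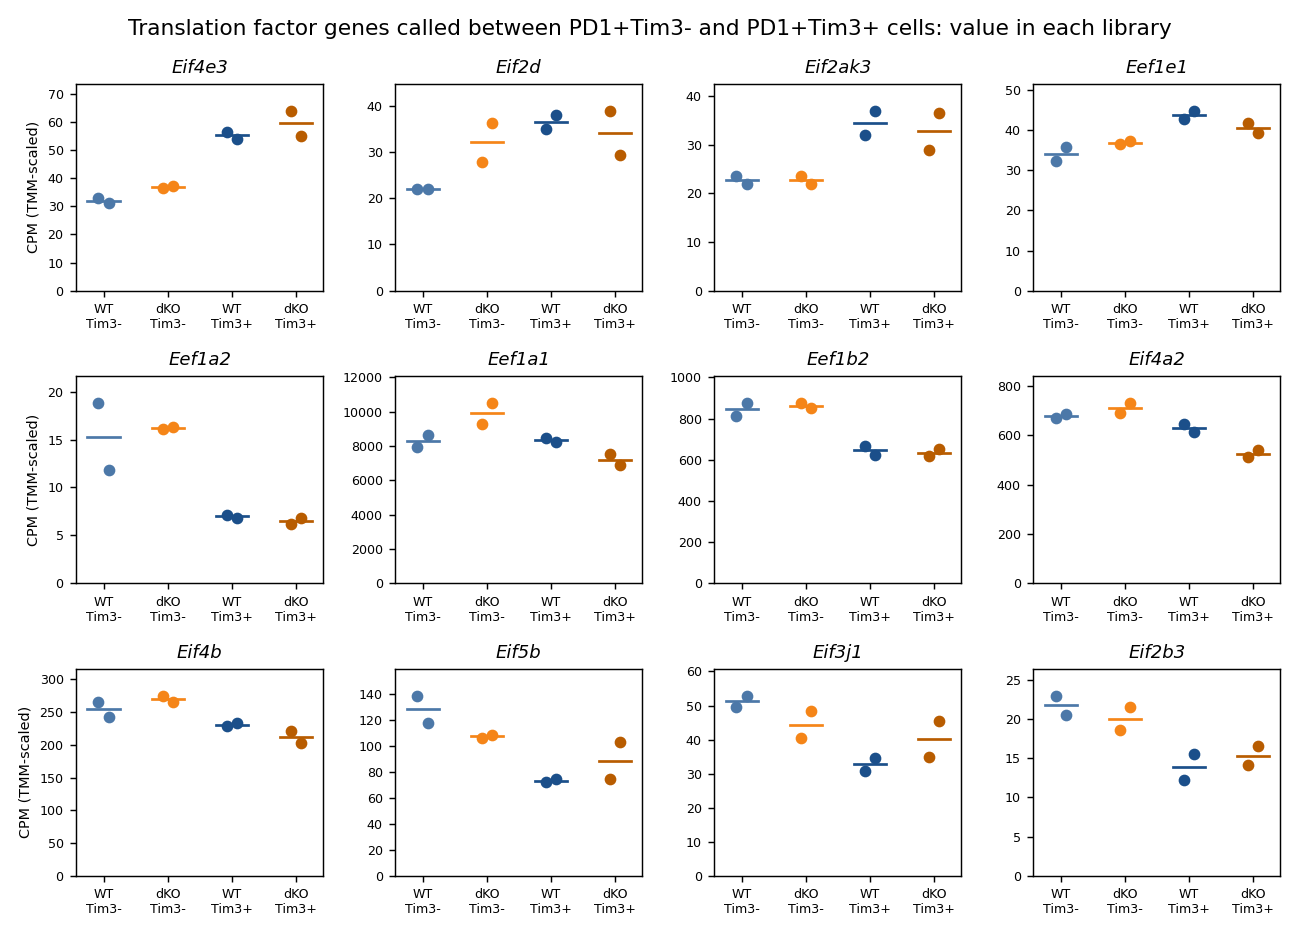
TMM-scaled CPM in each of the 8 libraries for the 12 members called in at least 1 contrast between populations; points are libraries, lines group means, and each axis starts at 0. Eif4e3 is above 54 CPM in every Tim3+ library and below 38 CPM in every Tim3- library, and Eef1a2 shows the reverse.

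Of the 12 tested genes of the eIF4F group, 1 rose and none fell in WT cells, and 1 rose and 1 fell in dKO cells. Eif4e3 (chr6:99625135-99666771, GRCm38, minus strand) encodes a cap-binding relative of eIF4E that is not held by the eIF4E-binding proteins. It was at 32.8 and 31.3 CPM in WT Tim3-, 36.4 and 37.3 in dKO Tim3-, 56.5 and 54.1 in WT Tim3+, and 64.0 and 54.9 CPM in dKO Tim3+ libraries. No Tim3+ value overlapped a Tim3- value. The log2 fold change was 0.78 ± 0.11 (SE) in WT (edgeR adjusted p = 0.00202) and 0.70 ± 0.12 in dKO cells (edgeR adjusted p = 0.0072). The WT call held under all 17 alternatives, and the dKO call under 16 of 17, lost without dKO Tim3- replicate 1 (log2 fold change 0.68, edgeR adjusted p = 0.104).

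Eif4e itself lay between 69.3 and 85.9 CPM in the 8 libraries, with no call in any contrast. As counts of Eif4e3 per 100 counts of Eif4e, the libraries read 42.1 and 37.6 in WT Tim3-, 47.0 and 46.4 in dKO Tim3-, 65.7 and 67.7 in WT Tim3+, and 88.7 and 79.2 in dKO Tim3+. The 4 groups did not overlap in this ratio, which was not tested. Eif4e3 shares 12.3% of its windows with other genes, and 373 exon bases on its strand with the annotated gene Gm20696.

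Eif4a2 (chr16:23107444-23114136, plus strand), the second eIF4A helicase, read 670 and 689 CPM in WT Tim3-, 692 and 731 in dKO Tim3-, 646 and 612 in WT Tim3+, and 511 and 539 CPM in dKO Tim3+ libraries. The dKO Tim3+ libraries were the lowest, and all Tim3+ values lay below the Tim3- values. It fell by 0.44 ± 0.11 on the log2 scale in dKO cells (edgeR adjusted p = 0.0361), a call lost under 9 of 17 alternatives (adjusted p 0.0143 to 0.192 over all of them), among them leaving out each of dKO Tim3- replicates 1 and 2, WT Tim3+ replicates 1 and 2 and dKO Tim3+ replicate 1. Without those libraries its fold change ran from -0.47 to -0.39. Its exons overlap annotated small nucleolar RNA genes on the same strand, and Rfc4 on the other strand over 194 exon bases. Eif4a1, its paralog, read 690 to 766 CPM in Tim3- and 582 to 715 CPM in Tim3+ libraries without a call.

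Eif4b, an eIF4A cofactor on the TOP list, read 265 and 243, 275 and 265, 228 and 233, and 221 and 203 CPM in WT Tim3-, dKO Tim3-, WT Tim3+ and dKO Tim3+ libraries. It fell by 0.24 ± 0.08 in the averaged contrast (edgeR adjusted p = 0.0451), a call lost under 11 of 16 alternatives (adjusted p 0.017 to 0.161), including leaving out any library except dKO Tim3+ replicate 1 (-0.27 to -0.21). The scaffold Eif4g1, at 152 to 194 CPM, was not called in any contrast.

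Among the 10 genes of start-site selection and subunit joining, 1 rose and 1 fell in WT cells and none was called in dKO cells. Eif5b (chr1:37998010-38055579, plus strand), the GTPase of subunit joining, read 139 and 118 CPM in WT Tim3-, 106 and 109 in dKO Tim3-, 72.3 and 74.3 in WT Tim3+, and 74.8 and 103 CPM in dKO Tim3+ libraries. The 4 Tim3+ values lay below the 4 Tim3- values, and dKO Tim3+ replicate 2 was close to the dKO Tim3- pair. It fell by 0.81 ± 0.14 in WT cells (edgeR adjusted p = 0.00471), lost without WT Tim3+ replicate 1 (-0.79, adjusted p = 0.0574 by edgeR) or replicate 2 (-0.83, adjusted p = 0.0504 by edgeR). In dKO cells the fold change was -0.27 ± 0.15 (edgeR adjusted p = 0.304), and the difference between genotypes did not pass (0.54 ± 0.21, edgeR adjusted p = 0.425).

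Eif5b overlaps Rev1 on the opposite strand over 1643 exon bases. Rev1 read 11.9 to 20.6 CPM, below every Eif5b value, and its WT difference was -0.43 ± 0.17 (edgeR adjusted p = 0.105). Since the strand setting of the counting is not given, reads of the shared stretch cannot be assigned.

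Eif2d (chr1:131153181-131187658, plus strand), which can bring tRNA to the ribosome without GTP and takes part in recycling, read 22.0 and 22.0 CPM in WT Tim3-, 27.9 and 36.2 in dKO Tim3-, 34.9 and 37.9 in WT Tim3+, and 38.9 and 29.4 CPM in dKO Tim3+ libraries. Only the WT Tim3- pair stood apart. It rose by 0.73 ± 0.16 in WT cells (edgeR adjusted p = 0.00996) and differed by 0.15 ± 0.17 in dKO cells (edgeR adjusted p = 0.67), with a difference between genotypes of -0.59 ± 0.23 (edgeR adjusted p = 0.434). The WT call was lost in edgeR without WT Tim3- replicate 1 (0.74, adjusted p = 0.0781), WT Tim3+ replicate 1 (0.78, adjusted p = 0.0544) or WT Tim3+ replicate 2 (0.67, adjusted p = 0.0919).

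Of the 7 genes of eIF2 and eIF2B, 1 fell in WT cells and none was called in dKO cells. Eif2b3 (chr4:117019402-117087306, plus strand), the gamma subunit of eIF2B, read 23.0 and 20.5, 18.6 and 21.5, 12.2 and 15.6, and 14.1 and 16.6 CPM in WT Tim3-, dKO Tim3-, WT Tim3+ and dKO Tim3+ libraries, with no overlap between the populations. It fell by 0.62 ± 0.16 in WT cells (edgeR adjusted p = 0.0233). That call was lost with DESeq2 (adjusted p = 0.11) and, in edgeR, without WT Tim3- replicate 1 (-0.52, adjusted p = 0.206), WT Tim3+ replicate 1 (-0.49, adjusted p = 0.142) or WT Tim3+ replicate 2 (-0.83, adjusted p = 0.056). The other catalytic subunit, Eif2b5, read 26.8 to 35.7 CPM, and Eif2s1, the eIF2 subunit that the kinases phosphorylate, 93.9 to 110 CPM, both without a call.

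Among the 4 eIF2 kinases, 1 rose in WT cells and none was called in dKO cells. Eif2ak3 (chr6:70844515-70905245, plus strand) encodes PERK, the kinase of the endoplasmic reticulum. It read 23.6 and 22.0 CPM in WT Tim3-, 23.5 and 22.0 in dKO Tim3-, 32.0 and 37.0 in WT Tim3+, and 29.0 and 36.6 CPM in dKO Tim3+ libraries. Every Tim3+ value lay above every Tim3- value, and the genotypes overlapped. It rose by 0.61 ± 0.14 in WT cells (edgeR adjusted p = 0.0139) and by 0.56 ± 0.11 in the averaged contrast (edgeR adjusted p = 0.00335), whereas the dKO value of 0.51 ± 0.16 did not pass (edgeR adjusted p = 0.0729).

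The averaged call for Eif2ak3 held under all 16 alternatives. The WT call was lost with DESeq2 (adjusted p = 0.091) and, in edgeR, without any 1 of the 4 WT libraries, with fold changes of 0.49 to 0.69 and adjusted p of 0.053 to 0.158. The other kinases had no call. Eif2ak2 (PKR, which binds double-stranded RNA) read 59.7 to 76.7 CPM, Eif2ak1 (HRI, which senses heme) 41.9 to 50.6 CPM, and Eif2ak4 (GCN2, which senses uncharged tRNA) 8.94 to 12.5 CPM.

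Of the 14 eIF3 subunit genes, 1 fell in WT cells and none was called in dKO cells. Eif3j1 (chr2:122028546-122056598, plus strand), a loosely bound subunit, read 49.5 and 52.9, 40.4 and 48.3, 30.9 and 34.6, and 34.8 and 45.6 CPM in WT Tim3-, dKO Tim3-, WT Tim3+ and dKO Tim3+ libraries. The WT pairs did not overlap, and the dKO pairs did. It fell by 0.63 ± 0.14 in WT cells (edgeR adjusted p = 0.0113), lost in edgeR without WT Tim3- replicate 1 (-0.67, adjusted p = 0.0612), WT Tim3+ replicate 1 (-0.56, adjusted p = 0.0977) or WT Tim3+ replicate 2 (-0.72, adjusted p = 0.0636). Eif3j1 shares 39.4% of its windows with Eif3j2, and Eif3j2 shares 90.8% of its windows with Eif3j1, so the split between them is uncertain. Eif3j1 also overlaps Spg11 on the opposite strand over 1107 exon bases, and reads of that stretch cannot be assigned. Spg11 read 16.4 to 24.1 CPM, below every Eif3j1 value. Its difference was -0.15 ± 0.14 in WT (edgeR adjusted p = 0.512) and -0.49 ± 0.16 in dKO cells (edgeR adjusted p = 0.0872). Eif3e, a TOP-listed subunit, read 408 to 583 CPM without a call.

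Both eEF1A genes and the exchange subunit Eef1b2 fell in at least 1 genotype, 2 of the 8 elongation factor genes in WT cells and 3 in dKO cells, and none rose. Eef1a2 (chr2:181147653-181157014, minus strand), known as the muscle and neuron form, read 18.8 and 11.8 CPM in WT Tim3-, 16.1 and 16.3 in dKO Tim3-, 7.14 and 6.86 in WT Tim3+, and 6.14 and 6.84 CPM in dKO Tim3+ libraries. The Tim3+ values were close together and all below the Tim3- values. It fell by 1.17 ± 0.22 in WT (edgeR adjusted p = 0.00569) and by 1.31 ± 0.26 in dKO cells (edgeR adjusted p = 0.0128), the largest change of any member in either genotype.

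The WT call of Eef1a2 was lost in edgeR without WT Tim3- replicate 1 (-0.75, adjusted p = 0.103) or WT Tim3+ replicate 2 (-1.12, adjusted p = 0.066), and the dKO call without dKO Tim3- replicate 1 (-1.32, adjusted p = 0.115) or replicate 2 (-1.31, adjusted p = 0.0619). The averaged call held under all 16 alternatives. Its transcript shares no window with other genes. Per 100 counts of Eef1a1 there were 0.236 and 0.137 counts of Eef1a2 in WT Tim3-, 0.173 and 0.154 in dKO Tim3-, 0.0841 and 0.0836 in WT Tim3+, and 0.0817 and 0.0994 in dKO Tim3+ libraries.

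Eef1b2 (chr1:63176825-63180486, plus strand) read 814 and 875 CPM in WT Tim3-, 875 and 850 in dKO Tim3-, 666 and 625 in WT Tim3+, and 616 and 652 CPM in dKO Tim3+ libraries. The populations were far apart next to the spread within them, and the genotypes overlapped. It fell by 0.39 ± 0.11 in WT (edgeR adjusted p = 0.0404) and by 0.44 ± 0.12 in dKO cells (edgeR adjusted p = 0.036). These calls were lost under 10 and 8 of 17 alternatives (adjusted p up to 0.282 and 0.193). In WT these included leaving out any WT or dKO Tim3- library (-0.44 to -0.34), and in dKO cells either dKO Tim3- library, either WT Tim3+ library or dKO Tim3+ replicate 1 (-0.46 to -0.40). However, in the averaged contrast it fell by 0.42 ± 0.08 (edgeR adjusted p = 0.00381), a call that held under all 16.

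Eef1a1 (chr9:78478449-78489151, minus strand) read 7950 and 8620 CPM in WT Tim3-, 9300 and 10500 in dKO Tim3-, 8490 and 8210 in WT Tim3+, and 7520 and 6880 CPM in dKO Tim3+ libraries. The dKO pairs did not overlap, and the WT pairs did. It fell by 0.46 ± 0.13 in dKO cells (edgeR adjusted p = 0.0425), with a WT difference of 0.01 ± 0.13 and a difference between genotypes of -0.47 ± 0.18 that did not pass (edgeR adjusted p = 0.403). The dKO call was lost under 8 of 17 alternatives (adjusted p up to 0.251), among them leaving out either dKO Tim3- library, either WT Tim3+ library or dKO Tim3+ replicate 2, with fold changes of -0.54 to -0.37. Eef2, the translocase, read 1260 to 1610 CPM and Eif5a 889 to 1050 CPM, both without a call.

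Among the 6 partners and modifiers, Eef1e1 (chr13:38644207-38659058, minus strand), a scaffold of the multi-tRNA synthetase complex, rose in WT cells. It read 32.3 and 35.7, 36.4 and 37.3, 42.7 and 44.8, and 41.7 and 39.2 CPM in WT Tim3-, dKO Tim3-, WT Tim3+ and dKO Tim3+ libraries. The rise of 0.37 ± 0.11 (edgeR adjusted p = 0.0365) was lost under 11 of 17 alternatives (adjusted p up to 0.34), including DESeq2, the transcript-length offsets and leaving out any library of WT or of dKO Tim3- (0.31 to 0.44). Eef2k, the kinase that inhibits eEF2, was near the bottom of the members at 5.58 to 9.45 CPM.

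Across the 62 members, the WT and dKO changes, which share no library, correlated at Pearson r 0.634, and over all 13073 genes at 0.622. The sign was the same for 38 of the 62 members (61.3%) and for 67.5% of all genes. Both correlations are across genes, which are not independent replicates, and Eef1a2 and Eif4e3 are the most distant points. In all, 3 members passed in both genotypes (Eef1a2, Eef1b2 and Eif4e3), 11 in either, and 51 in neither.

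**Figure D4:**
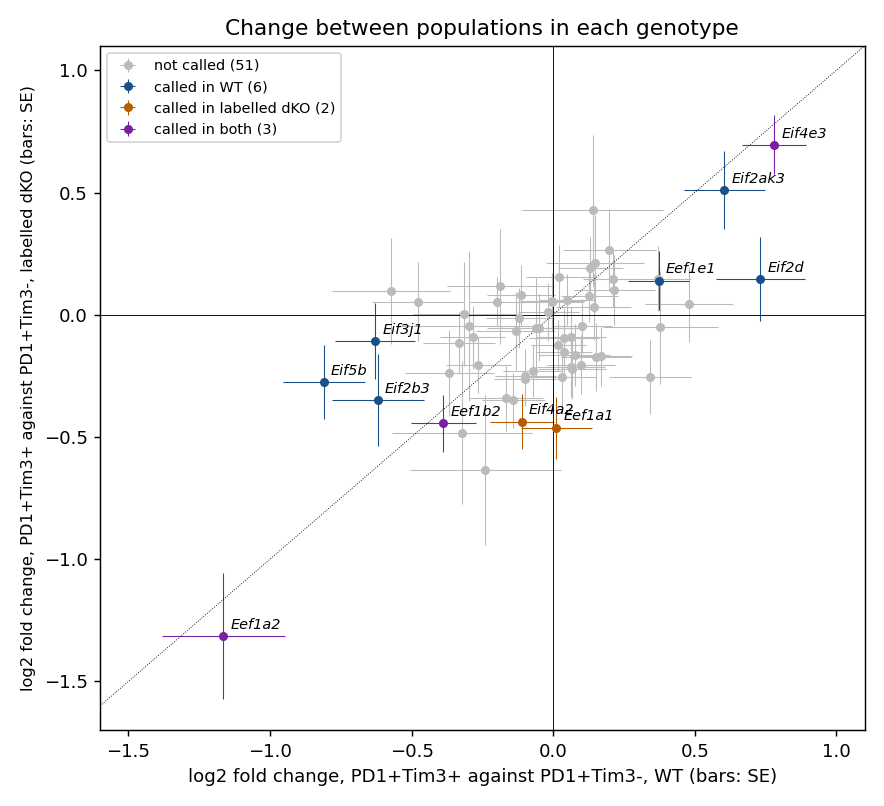
Log2 fold change of PD1+Tim3+ against PD1+Tim3- cells in WT (horizontal) and labelled dKO libraries (vertical) for the 62 tested members; bars are standard errors and the dotted line marks equal change. Eif4e3 (0.78 and 0.70) and Eef1a2 (-1.17 and -1.31) lie near the line at its ends, and 51 members called in neither genotype cluster around 0.

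Libraries labelled dKO against WT. The second question was whether the genotype changed these genes within a population. No member passed edgeR's test in Tim3- cells, where 0.0459% of all genes did, and none in Tim3+ cells, where 0.627% did. At an unadjusted p under 0.05 there were 4 members in Tim3- cells (6.45%, against 8.27% of all genes), all higher in dKO, and 3 in Tim3+ cells (4.84%, against 12.0%). DESeq2 and limma-voom likewise called none after adjustment. The median log2 fold change of the members was 0.05 in Tim3- and -0.04 in Tim3+ cells, against -0.01 and 0.01 over all genes.

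Among members with a mean of at least 10 CPM, the largest differences in Tim3- cells were those of Eif2d (0.49 ± 0.18), Eif4a3 (0.45 ± 0.15) and Eif3g (0.28 ± 0.12) on the high side, and Eif2ak4 (-0.36 ± 0.23), Eif1a (-0.26 ± 0.13) and Eif5b (-0.26 ± 0.15) on the low side. Eif4a3, the helicase of the exon junction complex, read 76.1 and 81.1 CPM in WT Tim3- and 93.9 and 124 CPM in dKO Tim3- libraries, and 94.0 and 104 against 99.2 and 80.7 CPM in Tim3+ libraries. The Tim3- pairs did not overlap, but the difference did not pass (edgeR adjusted p = 0.489).

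In Tim3+ cells, at the same minimum, the largest were Eif2s2 (0.49 ± 0.21), Eif3c (0.34 ± 0.16) and Eif3j1 (0.28 ± 0.14), and on the low side Eif4a2 (-0.26 ± 0.11), Eif2b1 (-0.25 ± 0.20) and Eif3f (-0.24 ± 0.15). Eif2s2, the beta subunit of eIF2, read 64.6 and 50.8 CPM in WT Tim3+ and 62.2 and 97.9 CPM in dKO Tim3+ libraries, and Eif3c, a core eIF3 subunit, 218 and 214 against 225 and 321 CPM. In both genes dKO Tim3+ replicate 2 stood far above the other 3 Tim3+ libraries. Without dKO Tim3+ replicate 1, which leaves that library alone in its group, the differences were 0.78 for Eif2s2 and 0.58 for Eif3c. With no low-count filter Eif2s2 passed (0.46, edgeR adjusted p = 0.0409), where 325 genes were higher and 161 lower of 23672.

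The 9 TOP-listed members were described as a list, since none was called for genotype. The list was chosen with earlier results of these data known, and its genes are not independent replicates. In Tim3- cells all 9 had a positive log2 fold change, from 0.03 to 0.26 with a median of 0.16. In Tim3+ cells 7 of 9 had a negative one, with a median of -0.12. Of all genes tested, 49.1% were positive in Tim3- and 51.0% in Tim3+ cells. With offsets for transcript length, or without WT Tim3- replicate 1, 8 of 9 were positive in Tim3- cells, and the negative count in Tim3+ cells ran from 6 to 8 over the alternatives. Without dKO Tim3+ replicate 2 the Tim3+ median was -0.056. Over the other 53 tested members the medians were -0.01 and -0.03. The 6 further TOP mRNAs that are neither members nor ribosomal protein genes had medians of 0.05 and 0.14, with 4 of 6 positive in each population. The 79 ribosomal protein genes, most of which are also TOP mRNAs, had medians on the other side of 0, -0.37 in Tim3- cells (64 of 79 negative) and 0.43 in Tim3+ cells (74 of 79 positive). The first was -0.23 without dKO Tim3- replicate 2, and -0.21 with offsets for transcript length. The second was 0.72 without dKO Tim3+ replicate 1, which leaves replicate 2 alone in its group. It was 0.16 without replicate 2 and 0.25 with those offsets. In the contrast of Tim3+ with Tim3- cells the TOP-listed members had medians of 0.01 in WT and -0.26 in dKO cells, and the ribosomal protein genes -0.93 and -0.08. Both values nearest 0 changed sign under some alternatives, the TOP-listed WT median between -0.11 and 0.07 and the ribosomal protein dKO median between -0.32 and 0.15.

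**Figure D5:**
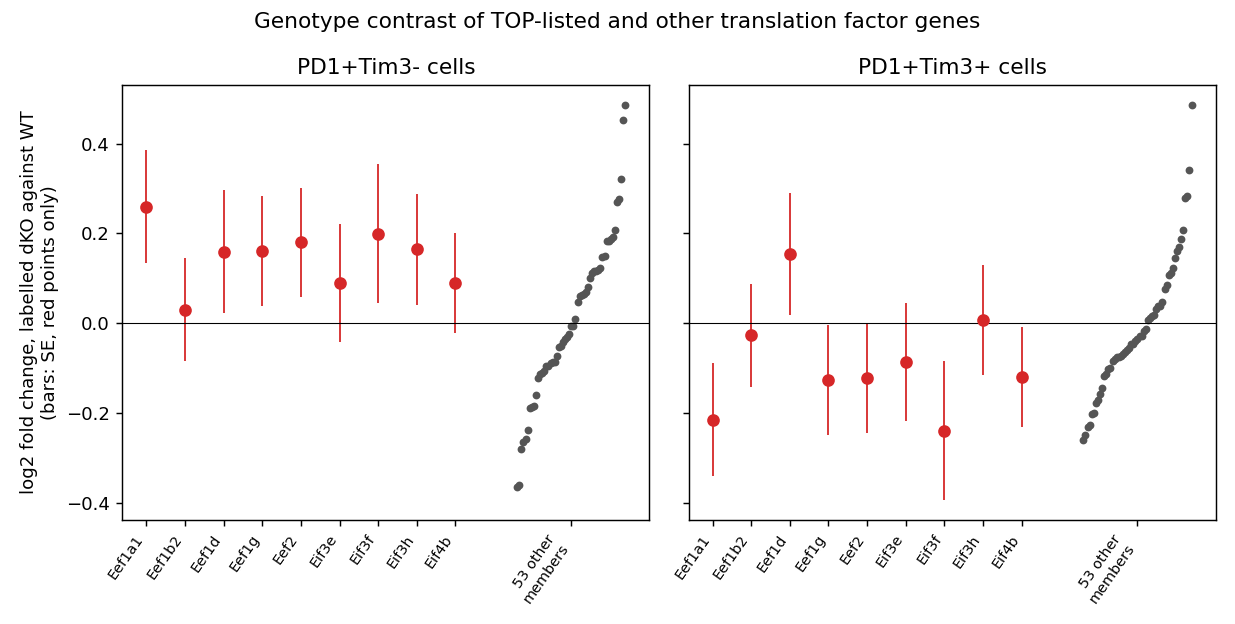
Log2 fold change of the libraries labelled dKO against WT in PD1+Tim3- (left) and PD1+Tim3+ cells (right), for the 9 TOP-listed members (red, bars are standard errors) and the 53 other tested members in rank order (grey). All 9 red points are above 0 on the left (8 of 9 with offsets for transcript length) and 7 of 9 are below 0 on the right, and no member passed the test in either panel.

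Interaction of genotype and population. No member and no gene of the table (0%) passed the test of the difference between the WT and dKO population changes in edgeR. At an unadjusted p under 0.05 there were 7 members (11.3%, against 10.1% of all genes), and DESeq2 and limma-voom called no member. The count over all genes was 68 with DESeq2 and 0 with limma-voom, and in edgeR 323 without dKO Tim3+ replicate 1. In edgeR it was also 331 when low genes were kept in, and 4 with the robust form of the spread estimate. Among members with a mean of at least 10 CPM, the largest positive values belonged to Eif2s2 (0.67 ± 0.30), Eif5b (0.54 ± 0.21) and Eif3c (0.53 ± 0.23), and the largest negative to Eif4a3 (-0.60 ± 0.21), Eif2d (-0.59 ± 0.23) and Eef1a1 (-0.47 ± 0.18). Across the members the genotype differences of the 2 populations, which share no library, correlated at Pearson r -0.329, against 0.0404 over all genes. The Spearman values were -0.298 and -0.0395. The sign was the same for 22 of 62 members (35.5%) and 46.7% of all genes. Genes are not independent replicates, and how far these correlations rest on single libraries was not tested. Leaving out dKO Tim3+ replicate 1 brought 1 member, Eif5b, past the threshold (edgeR adjusted p = 0.0394).

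Genes around the translation factors were read from lists of their regulators and partners. Between Tim3+ and Tim3- cells 17.0% of all genes tested passed in WT and 9.93% in dKO cells. The lists are small next to these shares, so their counts were not read as a result about a list. Between Tim3+ and Tim3- cells, none of the 13 genes of mTORC1, the S6 kinases and the MNK kinases, none of the 7 genes of the eIF2 phosphorylation response and none of the 6 poly(A)-binding protein genes passed in WT or in dKO cells taken alone. Of the eIF4E-binding proteins and the eIF4A inhibitor Pdcd4, 1 of 4 rose in dKO cells and none in WT cells. Eif4ebp1, which sequesters eIF4E, read 18.9 and 23.4, 18.5 and 20.5, 26.4 and 28.5, and 31.1 and 31.8 CPM in WT Tim3-, dKO Tim3-, WT Tim3+ and dKO Tim3+ libraries. It rose by 0.72 ± 0.16 in dKO cells (edgeR adjusted p = 0.0193), and the WT value was 0.40 ± 0.14 (edgeR adjusted p = 0.0709).

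Of 9 hypusine and diphthamide enzymes, 1 fell in each genotype. Dph5, a methyltransferase of the diphthamide residue on eEF2, read 112 to 130 CPM in Tim3- and 60.0 to 74.3 CPM in Tim3+ libraries. It fell by 0.84 ± 0.13 in WT (edgeR adjusted p = 0.00305) and by 0.77 ± 0.14 in dKO cells (edgeR adjusted p = 0.00878). Of 9 mitochondrial translation factors, 1 fell in each genotype. Mtif3, the mitochondrial initiation factor, read 87.7 to 134 CPM in Tim3- and 38.2 to 58.4 CPM in Tim3+ libraries. It fell by 1.19 ± 0.20 in WT (edgeR adjusted p = 0.00407) and by 1.02 ± 0.22 in dKO cells (edgeR adjusted p = 0.0184).

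Of 8 tested genes of termination, recycling and rescue, 1 fell in each genotype. Abce1, which splits the ribosome after termination, fell in WT cells by 0.37 ± 0.10 (edgeR adjusted p = 0.027), and Hbs1l, which rescues stalled ribosomes, in dKO cells by 0.56 ± 0.13 (edgeR adjusted p = 0.0255). Among the 6 other TOP mRNAs Npm1 fell in WT cells by 0.58 ± 0.11 (edgeR adjusted p = 0.00707), and among 4 initiation helicases Dhx9 did by 0.56 ± 0.14 (edgeR adjusted p = 0.0193). In the averaged contrast, added after the data had been seen, further genes of these lists passed in edgeR, where 22.8% of all genes did. Higher in Tim3+ cells were the S6 kinase gene Rps6kb2 (0.49 ± 0.12, adjusted p = 0.0155), the transcription factor gene Cebpg (0.29 ± 0.09, adjusted p = 0.0415), the poly(A)-binding protein partner Paip1 (0.23 ± 0.08, adjusted p = 0.0481) and the hypusine enzyme Dohh (0.33 ± 0.10, adjusted p = 0.0348). Lower were Pdcd4 (-0.26 ± 0.08, adjusted p = 0.0347), Ddit3, which encodes CHOP (-0.31 ± 0.09, adjusted p = 0.0348), and the helicase Ddx3x (-0.30 ± 0.08, adjusted p = 0.0215). The genes called in WT or dKO cells, Eif4ebp1 among them (0.56 ± 0.10, adjusted p = 0.00273), also passed in this contrast, each in the same direction. No gene of any of these lists was called for genotype in either population or for the interaction.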

How the data were processed

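The deposited table holds whole-number counts per gene symbol for the 8 libraries, made by the authors. Per the submitters' processing notes the genome build was mm10, and cutadapt 1.18 and Bowtie2 2.2.5 were used, with no role or order stated. Not given in the sources used here are the counting tool, annotation, strand setting and treatment of reads that match more than 1 gene. The last row, which has no gene name and equals the column totals, was left out.

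The main test was edgeR's quasi-likelihood F test (edgeR 4.0.16, R 4.3.3) on the counts, after TMM scaling (factors 0.901 to 1.07) and the default low-count filter, which kept 13073 genes. The model had a mean for each of the 4 groups over all 8 libraries, which leaves 4 degrees of freedom for the spread. P-values were adjusted by Benjamini-Hochberg over all genes tested, and a gene was called at an adjusted p under 0.05. CPM were scaled by TMM, except for the cell type marker lists, whose CPM are per library total. The fit was tested on simulated data. Alternatives were RLE size factors, DESeq2 1.42.0, limma-voom (limma 3.58.1), no filter, only the 4 libraries compared, a replicate block, offsets for transcript length, robust empirical Bayes and leaving out each library.

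Named members were those called in any contrast, the 3 largest in each direction with a mean of at least 10 CPM, a set of core factors and the 4 most and least abundant. The members and the gene lists were chosen with earlier results of these data known. Gene positions and transcript lengths came from GENCODE on GRCm38, the build of mm10. Windows around start sites came from RefSeq, and sequence sharing was counted as 50-base windows also found in another gene's transcripts.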

Additional observations from a re-analysis of the deposited data

How the results depend on the processing

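Direction held in every alternative for 44 of the 45 gene differences followed; the exception was Eif2b1 for genotype in Tim3+ cells. That value was -0.25 with all libraries, 0.047 without WT Tim3+ replicate 2, and -0.44 to 0.047 over the libraries left out. Of 736 alternative values, 612 stayed on their side of the threshold, 117 lost a call and 6 gained one. All 117 came from the 25 differences that had been called, since the rest had no call to lose. The number of members called in WT cells was 9, 5 with DESeq2, 15 with only the 4 libraries compared, and 1 to 14 when a library was left out. In dKO cells it was 5, 2 with only the 4 libraries compared, and 0 to 5 when a library was left out. The averaged contrast called 11, 5 with DESeq2, and 5 to 16 when a library was left out. For genotype in Tim3+ cells the count was 0, 1 with no low-count filter and 0 to 2 when a library was left out, and for the interaction 0 to 1. The replicate numbers are shared between groups, but the labels do not tie a number to a mouse, and same-numbered libraries of the groups compared deviated together at r -0.0585 to -0.0146. With a replicate block, 7 members were called in WT cells (over all genes 747 higher and 925 lower) and 2 in dKO cells (457 and 259). With the replicate block within genotype, 2 members were called in dKO cells (485 and 521). Over all genes, the main fit called 1078 higher and 1145 lower of 13073 in WT cells and 681 and 617 in dKO cells. In the averaged contrast it called 1592 and 1386. With only the 4 libraries compared, WT cells had 1260 and 1364 of 12945 genes. The dKO cells had 435 and 515 of 12490. With DESeq2, WT cells had 479 and 824, and the averaged contrast 903 and 928. In these settings the member counts moved in the same direction as the counts over all genes. The share of counts in members rose to 2.48% in WT Tim3-, 2.79% in dKO Tim3-, 2.76% in WT Tim3+ and 2.48% in dKO Tim3+ when ribosomal RNA and ribosomal protein genes were left out of the total, and to 2.45% in WT Tim3+ and 2.16% in dKO Tim3+ when ribosomal RNA alone was.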
